A study of Mus musculus with 45 samples.

Results

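Banp was followed as 1 gene of the 36172 listed in RNA sequencing tables of mouse cortex, hippocampus and retina. It was selected on measured values, chosen by an adjusted p under 0.05 and a lower level for tamoxifen against vehicle in each of the 3 tissues. The treatment difference is therefore the value that picked the gene, and it is described below with no test. The study's title asks whether tamoxifen, a ligand of oestrogen receptors given to mice to switch on tamoxifen-dependent Cre recombinase, leaves lasting or sex-dependent changes in the central nervous system.

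All animals were 3 months old and received either tamoxifen or its vehicle, sunflower oil. For the strain, any Cre allele, the dose, the route and the interval between dosing and tissue collection, nothing is given in the sources used here. The 43 libraries analysed came from 15 animals, 7 female and 8 male, of which 8 had received tamoxifen and 7 vehicle. Female libraries numbered 4 with tamoxifen and 3 with vehicle in every tissue. Male libraries numbered 3 with tamoxifen and 4 with vehicle in the cortex, 4 and 3 in the hippocampus, and 4 and 4 in the retina. Total counts per library ran from 10259768 to 22375163 in the cortex, from 31154309 to 44153244 in the hippocampus and from 9143811 to 18253874 in the retina. The cortex library of male tamoxifen animal 962 held 4567 counts and none for Banp, and it was left out.

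BANP, also called SMAR1, is a nuclear protein with a BEN domain that was found through its binding to BTG3 and to matrix attachment regions, the AT-rich stretches by which chromatin is anchored in the nucleus. It is known as a partner of p53 and of the HDAC1 and SIN3A repressor complex. It also binds a short palindromic CGCG element in CpG island promoters when these are unmethylated, and it activates the housekeeping genes behind them. The element is shown here as it occurs in the promoter of Srsf10, which encodes a splicing factor, because that gene is used further down to look at promoters that hold it. The 30 bases lie at chr4:135856075-135856104 on the plus strand of GRCm38.p6 and come from the RefSeq promoter table, with the element TCTCGCGA in capitals, 15 bases after the gene's start.
Srsf10: cgggagccaagTCTCGCGAgaagaggcagt

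Banp spans positions 121950533 to 122029258 of chromosome 8 on the plus strand in the deposited tables. The GENCODE annotation of GRCm38 places it at 121949750 to 122029258, with 16 transcripts, 8 of them protein coding. The tables give 1 value for all of these isoforms. An antisense transcript, Gm27011, overlaps a Banp exon at the start of the gene. The span of a long read-through model, Gm20388, holds all of Banp on the same strand. Since the use of strand in counting is not given, reads of Gm27011 cannot be told apart from those of Banp. Strand would not separate reads of Gm20388 from those of Banp, and whether their exons coincide was not examined.

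Banp was a gene of middling abundance. It had between 248.6 and 697.6 estimated counts per cortex library, between 676.3 and 1797.3 per hippocampus library and between 265.1 and 629.7 per retina library. Levels are given as CPM, counts per 1000000 of a library's total, with totals adjusted by TMM within a tissue. By mean CPM, not corrected for gene length, 59.2% of the 14680 genes tested in the cortex, 62.8% of 15339 in the hippocampus and 59.6% of 14781 in the retina lay below it. Counting error alone gave 95% Poisson intervals such as 17.0 to 21.4 CPM for cortex animal 954 and 25.3 to 31.6 CPM for cortex animal 951, both of them tamoxifen females.

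In the cortex, Banp was lower with tamoxifen in both sexes. The 4 tamoxifen females had 28.3, 21.5, 22.5 and 19.1 CPM (animals 951, 952, 953 and 954), and the 3 vehicle females had 35.7, 32.9 and 39.2 CPM (955, 957 and 958). The 3 tamoxifen males had 23.6, 30.99 and 24.2 CPM (959, 960 and 961), and the 4 vehicle males had 32.5, 36.5, 34.3 and 36.4 CPM (963, 964, 965 and 966). The groups did not overlap in either sex, although male 960 came close to the lowest vehicle male, 963. Over both sexes the level was 24.3 ± 4.07 CPM with tamoxifen and 35.3 ± 2.33 CPM with vehicle (SD, n = 7 each). The log2 fold change was -0.53 ± 0.08 (SE), which is 0.692 times the vehicle level. In 0.409% of the genes tested in the cortex the fall with tamoxifen passed the threshold, the criterion by which Banp had been chosen.

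In the hippocampus the females were further apart and the males overlapped. The 4 tamoxifen females had 24.7, 23.3, 22.4 and 19.8 CPM (951 to 954), and the 3 vehicle females had 37.9, 38.2 and 42.1 CPM (955, 957 and 958). The 4 tamoxifen males had 32.6, 32.9, 28.7 and 27.3 CPM (959 to 962), and the 3 vehicle males had 30.2, 40.6 and 41.6 CPM (963, 964 and 966). Vehicle male 963 lay below tamoxifen males 959 and 960, so 2 of 4 tamoxifen males were below every vehicle male, against 4 of 4 in females. The level over both sexes was 26.5 ± 4.78 CPM with tamoxifen (SD, n = 8) and 38.4 ± 4.40 CPM with vehicle (SD, n = 6), a log2 fold change of -0.55 ± 0.08 (SE). The share of genes lower past the threshold was 0.0522% in this tissue.

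In the retina the tamoxifen animals had the least spread. The 4 tamoxifen females had 27.8, 24.7, 25.6 and 24.7 CPM (951 to 954), and the 3 vehicle females had 34.8, 36.0 and 40.9 CPM (955, 957 and 958). The 4 tamoxifen males had 28.2, 30.1, 26.7 and 27.3 CPM (959 to 962), and the 4 vehicle males had 34.2, 40.0, 35.6 and 40.5 CPM (963 to 966). Every tamoxifen library lay below every vehicle library, sexes included. The gene was chosen on this contrast, and the share of all genes separated in this way was not counted in any tissue. The level was 26.9 ± 1.87 CPM with tamoxifen (SD, n = 8) and 37.4 ± 2.91 CPM with vehicle (SD, n = 7), a log2 fold change of -0.48 ± 0.06 (SE). The share of genes lower past the threshold was 0.0338% in the retina. These are bulk samples, in which fewer cells that make Banp RNA and less Banp RNA per cell cannot be told apart.

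**Figure D1:**
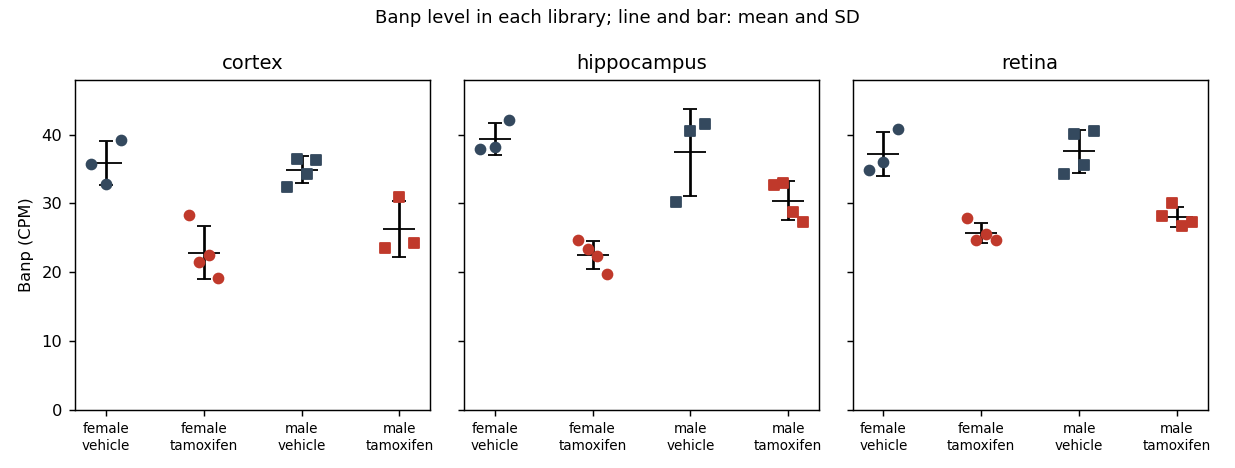
Banp level (CPM, vertical axis from 0) in every library of cortex, hippocampus and retina, by sex and treatment, with the mean and SD of each group. Tamoxifen libraries (red) lie between 19.1 and 32.9 CPM and vehicle libraries (dark) between 30.2 and 42.1 CPM, and the groups of 1 sex overlap in the hippocampus of males only.

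The sexes were compared next, a comparison that had no part in choosing the gene. Averaged over treatments, the male minus female log2 difference of Banp was 0.09 ± 0.08 in the cortex (SE, edgeR adjusted p = 0.798), 0.18 ± 0.08 in the hippocampus (adjusted p = 0.109) and 0.07 ± 0.06 in the retina (adjusted p = 0.672). None passed the threshold. Genes that differed between the sexes made up 0.0817% of those tested in cortex, 17.7% in hippocampus and 0.149% in retina. The hippocampal difference passed without animal 963 (0.24, adjusted p = 0.0363) and without the 3 libraries rich in choroid plexus transcripts (0.25, adjusted p = 0.0384).

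The size of the treatment difference was also set against sex. In females the tamoxifen minus vehicle log2 difference was -0.66 ± 0.12 in cortex, -0.81 ± 0.11 in hippocampus and -0.54 ± 0.09 in retina (SE). In males it was -0.40 ± 0.11, -0.30 ± 0.11 and -0.42 ± 0.08 in the same order. The female value was the further from 0 in each tissue. The difference between the sexes, male minus female, was 0.26 ± 0.16 in the cortex (SE, 95% interval -0.08 to 0.60, edgeR adjusted p = 0.925), 0.50 ± 0.15 in the hippocampus (0.18 to 0.83, adjusted p = 0.9998) and 0.11 ± 0.12 in the retina (-0.13 to 0.36, adjusted p = 0.999). The cortex value was 0.11 without animal 960 and 0.04 without the libraries rich in choroid plexus transcripts, and it lay between 0.17 and 0.37 with any other animal left out. The retina value lay between 0.04 (without 958) and 0.16 with 1 animal left out. The hippocampus value lay between 0.37 and 0.59 over 19 alternative fits, those with 1 animal left out among them. None of the 3 differences passed after adjustment over all genes, although the hippocampal value had an unadjusted p of 0.00475 by edgeR's quasi-likelihood test. For this contrast edgeR called 0% of genes in every tissue, with 808 (cortex), 463 (hippocampus) and 498 (retina) genes at an unadjusted p under 0.05. DESeq2 called 7, 0 and 0.

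Levels without tamoxifen were compared between tissues in the vehicle animals, with the libraries scaled together. On that scale Banp stood at 35.5 ± 2.35 CPM in the cortex (SD, n = 7), 35.9 ± 2.77 CPM in the retina (SD, n = 7) and 40.0 ± 4.56 CPM in the hippocampus (SD, n = 6). The order was cortex, retina, hippocampus, and no neighbours in it differed beyond the threshold. The log2 difference was 0.01 ± 0.07 for retina minus cortex (SE, 95% interval -0.14 to 0.17, edgeR adjusted p = 0.863). It was -0.15 ± 0.07 for retina minus hippocampus (-0.30 to 0.01, adjusted p = 0.0736) and 0.16 ± 0.07 for hippocampus minus cortex (0.01 to 0.31, adjusted p = 0.0687). The tissues share animals, and with the animal as a replicate block both differences from the hippocampus passed, at -0.13 ± 0.06 (edgeR adjusted p = 0.0351) and 0.14 ± 0.06 (adjusted p = 0.0331). Without animal 963 they were -0.26 and 0.26 (adjusted p = 0.00107 and 0.00178). With library totals in place of TMM they were -0.05 (adjusted p = 0.569) and 0.12 (adjusted p = 0.171), and retina minus cortex was 0.08.

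Most genes differed between these tissues, so that a passing difference is common. The share past the threshold was 83.5% for retina minus cortex, 84.6% for retina minus hippocampus and 58.3% for hippocampus minus cortex. Banp was among the genes with the least difference between retina and cortex, since 1.03% of the 15598 genes tested had a smaller absolute log2 difference and the median gene differed by 0.79. For retina minus hippocampus 10.8% of genes had a smaller difference than Banp, and for hippocampus minus cortex it was 30%.

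The treatment difference was then compared between tissues in 1 fit of all 43 libraries. A gene chosen for being lower in each of the 3 tissues is less likely to show a difference between them. The log2 effect in the retina minus that in the cortex was 0.05 ± 0.11 (SE, 95% interval -0.17 to 0.28), and 0.0377% of genes passed for this contrast. The effect in the retina minus that in the hippocampus was 0.07 ± 0.11 (-0.14 to 0.29), with 0.0126% of genes past the threshold. The effect in the hippocampus minus that in the cortex was -0.02 ± 0.11 (-0.24 to 0.20), with 0% called by edgeR, 638 genes at an unadjusted p under 0.05 and 0 called by DESeq2. By edgeR the adjusted p of Banp was 1 after rounding in each of these comparisons. The intervals leave room for differences of up to 0.29 on the log2 scale.

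**Figure D2:**
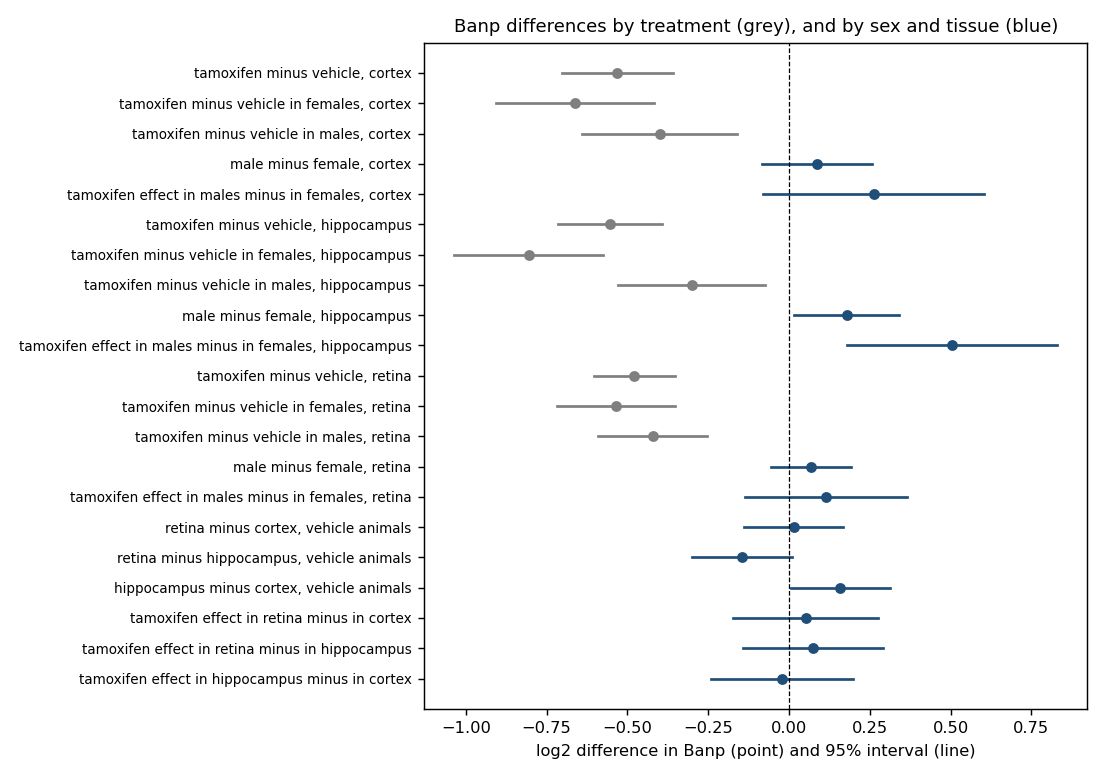
Log2 differences in Banp (points) with 95% intervals (lines) for every contrast fitted. The treatment differences (grey), on which the gene was chosen, run from -0.81 in hippocampus females to -0.30 in hippocampus males, and among the other contrasts (blue) the interval for the difference of treatment effects between the sexes in the hippocampus, 0.18 to 0.83, is the furthest from 0.

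Because the animal numbers are shared between tissues, the level of Banp in 1 tissue could be set against its level in another tissue of the same animal, within a treatment group. With TMM scaling within a tissue, 960 had the highest and 954 the lowest level among tamoxifen animals in each of the 3 tissues, and 958 the highest and 963 the lowest among vehicle animals. Some of these ranks turned with the scaling. Male 959 lay above 960 in the hippocampus with library totals (33.7 CPM) and with all libraries scaled together (34.4 CPM), and with the latter 952 was the lowest tamoxifen retina (23.8 CPM). Among vehicle animals 955 was the lowest in the retina on both of these scales (34.4 and 32.8 CPM), while with library totals 957 was the lowest in the cortex (32.4 CPM) and 966 the highest in the retina (40.9 CPM). Pearson's r between cortex and retina was 0.90 over 7 tamoxifen animals (exact permutation p = 0.00496, adjusted p = 0.0149 over 6 relations, rho = 0.89 with exact p = 0.0123) and 0.81 over 7 vehicle animals (exact p = 0.0300, adjusted p = 0.0433, rho = 0.82 with exact p = 0.0341).

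Hippocampus and retina were related as closely. Their r was 0.86 over 8 tamoxifen animals (exact permutation p = 0.00784, adjusted p = 0.0157, rho = 0.88 with exact p = 0.00724). It was 0.82 over 6 vehicle animals (exact p = 0.00139, the smallest that 6 animals allow, adjusted p = 0.00833), whose order was the same in both tissues (rho = 1, exact p = 0.00278). Cortex and hippocampus gave 0.79 over 6 vehicle animals (exact p = 0.0361, adjusted p = 0.0433, rho = 0.89 with exact p = 0.0333) and 0.69 over 7 tamoxifen animals (exact p = 0.0893, adjusted p = 0.0893, rho = 0.82 with exact p = 0.0341), the relation that did not pass by r.

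Without the 2 animals furthest from the median on the first-named tissue, r was 0.74 and 0.63 for cortex and retina in tamoxifen and vehicle animals, 0.72 and 0.98 for hippocampus and retina, and 0.73 for cortex and hippocampus in vehicle animals. The remaining relation, cortex and hippocampus in tamoxifen animals, dropped to 0.15 and rests on animals 954 and 960. With each sex centred on its own mean, the 6 values of r lay between 0.74 and 0.91. Of 13790 genes tested in all 3 tissues, the share with an r at least that of Banp was 0.689% and 1.65% for cortex and retina, 0.225% and 2.36% for hippocampus and retina, and 5.18% and 5.55% for cortex and hippocampus, tamoxifen animals first. The median r over genes lay between -0.07 and 0.15. The relations among vehicle animals did not all hold their threshold. Without animal 958 or 966, and with library totals in place of TMM, none of the 3 passed, with r between 0.71 and 0.83. Without 963 or 964 both that involve the cortex did not pass, nor did cortex and hippocampus without 955 or cortex and retina without 965.

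**Figure D3:**
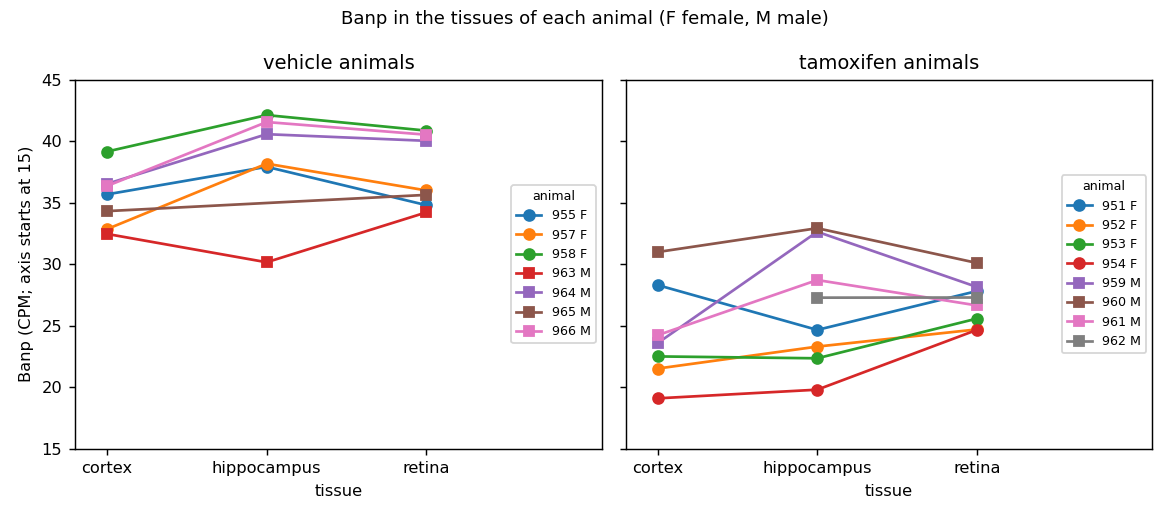
Banp level (CPM, axis from 15) in the cortex, hippocampus and retina of each animal, joined by a line, with vehicle animals on the left and tamoxifen animals on the right. On this scale, TMM within a tissue, vehicle animal 963 is the lowest and 958 the highest of its panel in all 3 tissues, as 954 and 960 are in the other panel, and with library totals or all libraries scaled together other animals take some of these places.

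The genes whose level followed that of Banp most closely were found over the 43 libraries, with log2 CPM centred within each tissue. This likeness includes the treatment difference on which Banp was chosen, libraries of 1 animal are not independent, and r is given as a description. The 10 genes most alike were Pfkfb3, which makes an activator of glycolysis (r = 0.83), the endoplasmic reticulum chaperone Hspa5 (0.81), the adenylate kinase Ak4 (0.78), the collagen prolyl hydroxylase P4ha1 (0.76), the hypoxia-inducible factor subunit Hif3a (0.73), the clock gene Per2 (0.73), the glucocorticoid receptor co-chaperone Fkbp5 (0.72), St7 (0.72), Cables1 (0.72) and the zinc finger repressor Zbtb16 (0.71). The middle 95% of genes lay between -0.37 and 0.42.

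The 5 genes that ran most opposite to Banp were mainly immediate early genes, which cells transcribe rapidly on stimulation. Fos, a subunit of the AP-1 factor, had an r of -0.90, the orphan nuclear receptor Nr4a1 -0.84, the antiproliferative gene Btg2 -0.77, Zc3h6 -0.75 and the MAP kinase phosphatase Dusp1 -0.73. Over both treatments together, Fos had r with Banp of -0.93 in the cortex (14 libraries), -0.94 in the hippocampus (14 libraries) and -0.81 in the retina (15 libraries). Pfkfb3 had r of 0.92, 0.78 and 0.88 in the same order. These values also carry the treatment difference on which Banp was chosen. With tamoxifen the log2 fold change of Fos was 0.73 ± 0.06, 0.55 ± 0.09 and 0.36 ± 0.10 (SE), in the same order of tissues. That of Pfkfb3 was -0.47 ± 0.06, -0.17 ± 0.06 and -0.32 ± 0.06.

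Centring within each group of tissue, sex and treatment removes the treatment difference. Fos then still had an r of -0.73 with Banp and Nr4a1 -0.68. Among libraries of the same tissue, sex and treatment, those with less Banp thus tended to have more Fos. These r pool 43 libraries of 15 animals over the tissues, and libraries of 1 animal are not independent. Fos, Nr4a1 and the genes most alike within tissues were picked over these same libraries, and differences within groups are part of that ranking. A remaining r of the same sign is therefore partly built in. With each group centred, the middle range of r, for the same share of genes as within tissues, ran from -0.37 to 0.37. Pfkfb3 kept 0.65, Ak4 0.62, P4ha1 0.61 and Hspa5 0.60. Zbtb16 (-0.04), Hif3a (-0.12) and Fkbp5 (0.12) had values near 0, although Zbtb16, like Banp, was lower with tamoxifen in each tissue (log2 fold change -0.78 ± 0.06 in cortex, -0.64 ± 0.09 in hippocampus and -1.33 ± 0.17 in retina, SE). The hippocampal call of Zbtb16 ended without animal 952 or 957 (edgeR adjusted p = 0.06 and 0.0601) and without the libraries rich in choroid plexus transcripts (adjusted p = 0.0758). The 5 genes most like Banp on this scale were Pfkfb3, Cryz, a quinone oxidoreductase (0.62), Ak4, P4ha1 and the dynein light chain Dynlrb2 (0.61). With Spearman's rho, 8 of the 10 genes most alike within tissues were among the first 10 again, and 2 of the 5 most alike within groups among the first 5.

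**Figure D4:**
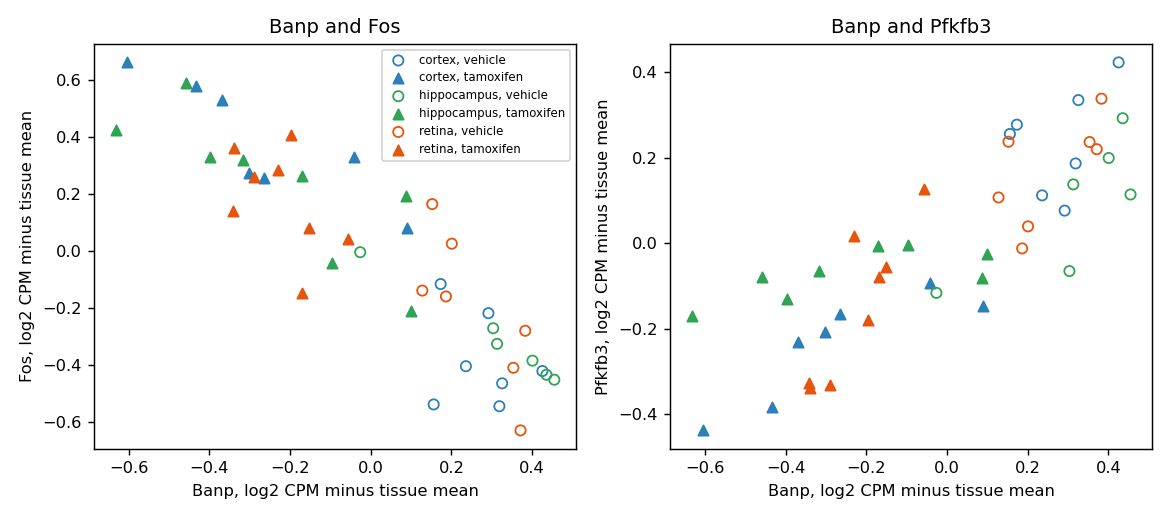
Level of Fos (left) and Pfkfb3 (right) against that of Banp in 43 libraries, each as log2 CPM minus the tissue mean. Tamoxifen libraries (filled triangles) lie mostly to the left, with Fos running against Banp (r = -0.90) and Pfkfb3 with it (r = 0.83).

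The genes beside Banp on chromosome 8 were examined within 250 kb. Slc7a5, the light chain of a large neutral amino acid transporter, was the nearest gene tested in all 3 tissues, with a log2 fold change of -0.13 ± 0.05 in the cortex (SE, edgeR adjusted p = 0.402), -0.11 ± 0.07 in the hippocampus and -0.06 ± 0.07 in the retina. Jph3, which holds the endoplasmic reticulum close to the plasma membrane in neurons, had 0.04 ± 0.06, 0.08 ± 0.06 and 0.08 ± 0.07. Klhdc4 had 0.04 ± 0.07, 0.01 ± 0.08 and -0.04 ± 0.06. Car5a, a mitochondrial carbonic anhydrase gene, passed the filter on low counts in the hippocampus only (-0.26 ± 0.35). Of the 3, 4 and 3 neighbours tested in the cortex, hippocampus and retina edgeR called 0, and DESeq2 also called 0. Over all genes edgeR called 0.599%, 0.0652% and 0.0474%, and DESeq2 1.2%, 0.411% and 0.399%. With so few neighbours, 0 calls cannot show whether the locus differs from other genes. Slc7a5 in the cortex was the 1 neighbour at an unadjusted p under 0.05, where 9.4% of all genes were.

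**Figure D5:**
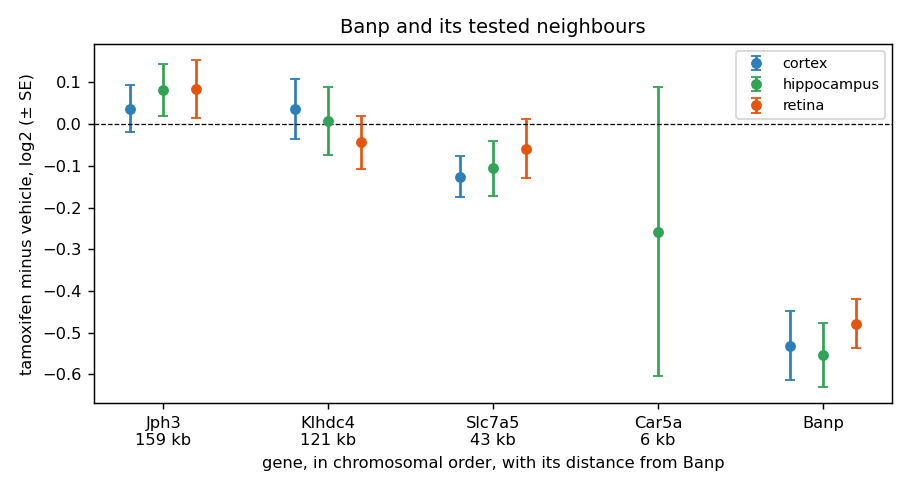
Tamoxifen minus vehicle log2 fold change (± SE) of Banp and of the neighbouring genes tested, in chromosomal order with their distance from Banp. Values for Jph3, Klhdc4 and Slc7a5 lie between -0.13 and 0.08, against -0.55 to -0.48 for Banp.

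Genes tied to BANP by its known biochemistry were then counted for tamoxifen against vehicle. Of 10 genes for its binding partners, among them Trp53, Hdac1, Sin3a and Btg3, edgeR called 0 in each tissue, with 0, 1 and 1 at an unadjusted p under 0.05 in the cortex, hippocampus and retina, and DESeq2 called 0. Over all genes tested edgeR called 0.599% in the cortex, 0.0652% in hippocampus and 0.0474% in retina, and 9.4%, 7.84% and 7.14% had an unadjusted p under 0.05. DESeq2 called 1.2%, 0.411% and 0.399% of these genes. Trp53, which encodes p53, had a log2 fold change of -0.06 ± 0.08 in cortex, 0.01 ± 0.06 in hippocampus and -0.01 ± 0.08 in retina (SE). Hdac1, a histone deacetylase, had 0.01 ± 0.07, 0.01 ± 0.07 and 0.01 ± 0.05. Sin3a, the scaffold of the repressor complex, had 0.02 ± 0.05, -0.12 ± 0.04 (edgeR adjusted p = 0.432) and 0.00 ± 0.04. The median of the list was -0.02, 0.00 and 0.00, against a median of 0.01, 0.00 and 0.00 over all genes tested.

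The BEN domain family has other members that bind DNA or chromatin. Of 7 tested, edgeR called 0 in each tissue, DESeq2 called 0, and 0 had an unadjusted p under 0.05. Medians were 0.04, -0.01 and 0.00. Of 8 genes reported as BANP targets, among them the cyclin gene Ccnd1, the cyclin-dependent kinase inhibitor Cdkn1a and the pro-apoptotic gene Bbc3, edgeR called 0, with 2, 0 and 1 at an unadjusted p under 0.05, and DESeq2 called 0. Ccnd1 had -0.07 ± 0.06, -0.04 ± 0.06 and -0.02 ± 0.10, and Cdkn1a had -0.14 ± 0.07, -0.27 ± 0.14 and -0.14 ± 0.15, in the cortex, hippocampus and retina. Bbc3 had 0.30 ± 0.18, -0.05 ± 0.16 and 0.51 ± 0.22, none of them past the threshold. The list medians were 0.11, 0.00 and -0.01. Over all genes edgeR called 0.599%, 0.0652% and 0.0474%, and 9.4%, 7.84% and 7.14% had an unadjusted p under 0.05. With lists of 7, 8 or, for the partners, 10 genes, 0 calls cannot show whether a list differs from other genes.

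Among p53 target genes, Btg2 rose in the cortex (0.66 ± 0.09, edgeR adjusted p = 0.000384) and was the 1 gene called of 19 tested there, while 0.191% of all genes tested in the cortex rose. Its value was 0.36 ± 0.07 in the hippocampus (adjusted p = 0.103) and 0.14 ± 0.04 in the retina (adjusted p = 0.283). Of 20 p53 targets in the hippocampus and 18 in the retina edgeR called 0, with 2 and 4 at an unadjusted p under 0.05 (10% and 22.2% of the list, against 7.84% and 7.14% of all genes), while DESeq2 called 1 in each, Btg2 and Gadd45a. Medians were -0.02, 0.00 and 0.00. Btg2 is also transcribed as an immediate early gene, and it is 1 of the 5 genes that ran most opposite to Banp above.

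Other readers of CpG islands were looked at because they bind the same class of promoter as BANP. Of 23 such factors edgeR called 0 in each tissue, with 6, 3 and 5 at an unadjusted p under 0.05, that is 26.1%, 13% and 21.7% of them against 9.4%, 7.84% and 7.14% of all genes. DESeq2 called Ctcf lower in the cortex and 0 in the hippocampus and retina. Their medians were -0.07, -0.06 and -0.03. Of 18 nuclear matrix and matrix attachment region proteins tested in the cortex and hippocampus and 17 in the retina, edgeR called 0, with 3, 2 and 1 at an unadjusted p under 0.05, and DESeq2 called 0. Their medians were -0.02, -0.06 and -0.01. Lists of 17 to 23 genes are also too short for 0 edgeR calls to show a difference from other genes.

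The element printed for Srsf10 was searched on both strands of 300-base promoters, 250 before to 50 after each start, in the RefSeq table. It occurred in 0.995% of 32851 promoters, which belong to 306 of 27025 genes. A match is a description of the sequence and not a measured binding site. Of genes with the element, 252 were tested in cortex, 257 in hippocampus and 255 in retina. edgeR called 0 higher and 1 lower in the cortex, where 0.337% of all genes with a promoter in the table were lower, and 0 in the hippocampus and retina. At an unadjusted p under 0.05 there were 22, 16 and 20 such genes, or 8.73%, 6.23% and 7.84% of them, near the shares of all genes (9.4%, 7.84% and 7.14%). DESeq2 called 2, 0 and 0, against 1.2%, 0.411% and 0.399% of all genes. The median log2 fold change of genes with the element was 0.00, 0.01 and 0.00.

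Srsf10 was the gene called lower in the cortex, with a log2 fold change of -0.22 ± 0.05 (SE, edgeR adjusted p = 0.0455). It had -0.19 ± 0.05 in the hippocampus (adjusted p = 0.324) and -0.10 ± 0.05 in the retina (adjusted p = 0.756). The call in the cortex ended in 12 of the 14 fits that left out 1 animal (all but those without 959 or 963), with values between -0.25 and -0.19 and an adjusted p of up to 0.125. The shorter core TCGCGA, which lies within the element and includes all its matches, was present in 2.499% of promoters. Of 620, 632 and 623 tested genes with it, edgeR called 2 lower in the cortex and 0 in the other tissues. The 2 are 0.323% of them, against 0.337% of all genes with a promoter in the table. At an unadjusted p under 0.05 there were 58, 50 and 47, or 9.35%, 7.91% and 7.54%. The shares of all genes were near these (9.4%, 7.84% and 7.14%). DESeq2 called 1 higher and 4 lower in the cortex and 0 elsewhere, against 1.2%, 0.411% and 0.399% of all genes.

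The labelled tissues were checked against marker genes. The 6 retina markers summed to between 24966.7 and 30538.6 CPM in retina libraries and to at most 71.6 CPM in cortex and hippocampus, and the 6 hippocampus markers to at least 525.9 CPM in hippocampus and at most 231.5 CPM elsewhere. The 6 cortex markers were at 511.2 to 630.8 CPM in the cortex and at most 304.7 CPM in the hippocampus, and they were also present in the retina (464.4 to 585.5 CPM). Some libraries carried transcripts of adjacent tissue. The 12 choroid plexus markers, secretory epithelium genes of the brain ventricles, reached 3244 CPM with tamoxifen and 1321 with vehicle in the cortex, against medians of 47.7 and 119.5. In the hippocampus they reached 2565 and 2863 CPM against medians of 155.6 and 113.9. The 13 lens markers reached 527.6 CPM in tamoxifen retinas and 15.4 CPM in vehicle retinas.

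Banp was therefore also described without the libraries at more than 5 times their tissue's median. These are cortex 958, 960 and 965 and hippocampus 951, 958 and 962 for choroid plexus, and retina 951, 959 and 962 for lens. The tamoxifen minus vehicle log2 difference was then -0.57 in cortex, -0.53 in hippocampus and -0.49 in retina, close to the values with all libraries. The adjusted p on which the gene was chosen then lay at 0.0594 in the hippocampus and under the threshold in the other tissues. The summed levels of neuron markers, at medians of 5807 and 5994 CPM in the cortex, 4364 and 4354 in the hippocampus and 3279 and 3277 in the retina (tamoxifen, then vehicle), overlapped between treatments, as did those of astrocyte, oligodendrocyte and microglia markers.

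Lens and red cell markers in the retina and cortex markers in the hippocampus held the most members at an edgeR unadjusted p under 0.05. Other lists also had medians away from 0. These were 0.68 over 12 choroid plexus markers and 0.30 over 4 rod markers in the hippocampus, and 0.26 over 6 retina markers in the cortex. Of those, 0, 1 and 0 had an unadjusted p under 0.05. The lens markers of the retina had a median log2 fold change of 3.33 over the 12 tested. Of these 10 had an unadjusted p under 0.05, against 7.14% of all genes, and edgeR and DESeq2 called 0. The retinas rich in lens transcripts, 951, 959 and 962, were all from tamoxifen animals. The 3 red cell markers found summed to between 10.4 and 29.5 CPM in tamoxifen retinas and between 17.9 and 67.7 CPM in vehicle retinas. Their log2 fold changes in the retina were -0.92 for Hba-a1 and -1.13 for Hba-a2, both alpha globins, and -1.12 for Alas2, the first enzyme of red cell haem synthesis. edgeR called 0 of them, with 3 of 3 at an unadjusted p under 0.05, and DESeq2 called Hba-a2 lower. In the hippocampus the summed cortex markers lay between 229.3 and 270.3 CPM with tamoxifen and between 239.2 and 304.7 CPM with vehicle. The 5 tested there had a median log2 fold change of -0.20, with 3 at an unadjusted p under 0.05 and 0 called by edgeR or DESeq2. The part of red cell and cortex marker transcripts in the Banp values was not tested.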

How the data were processed

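RNA was measured in 45 samples of mouse cortex, hippocampus and retina. Per the labels' protocols, AllPrep kits yielded the RNA and a TruSeq kit the libraries. Each tissue has 1 table in which the authors deposited estimated counts per gene, unscaled, as the word raw in the file headers says. The submitters' processing notes name GRCm38, mm10 and DESeq. The aligner, counting tool and strand setting are not stated there.

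The counts were rounded. A cortex library under 1000000 counts was left out, and animal 965 has no hippocampus value analysed here. Genes were kept with filterByExpr (minimum count 10, minimum total 15), scaled by TMM and fitted with edgeR 4.0.16 in R 4.3.3 (quasi-likelihood, group means of tissue, sex and treatment), with Benjamini-Hochberg adjustment over all genes and a threshold of 0.05. The SE is the log2 fold change over the root of F, without sign. DESeq2 1.42.0 was an alternative, and the others are no filter, library totals, each replicate left out, a replicate block, the near-empty library kept, 1 fit of all tissues and leaving out libraries rich in adjacent tissue. Fits were also run on simulated data, drawn as independent libraries with the same spread for all genes. Shared animals were not simulated, and no result here rests on these runs. Log2 CPM for likeness used a prior count of 2. Replicates are separate animals, which carry the same number in each tissue's titles. Deviations from group means had a median r of 0.03 over 41 pairs of libraries of 1 animal and 0.00 over 114 other pairs. Relations between tissues used exact two-sided permutation tests. No batch is given in the labels. Poisson intervals cover counting error only.

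Named genes were Banp, tested genes within 250 kb, the 10 most and 5 least alike within tissues, the 5 most alike within groups, and members of the lists past the threshold; other list members are named for their known tie to BANP, and list genes called by DESeq2 alone were named after their values were seen. Banp and the lists were chosen with earlier results of these data known.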

Additional observations from a re-analysis of the deposited data

Results flagged for a closer look

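Vehicle animal 963 stood apart in the hippocampus. Its Banp level was 30.2 CPM, while the other 5 vehicle animals of both sexes lay between 37.9 and 42.1 CPM, a gap larger than Dixon's 95% criterion allows for 6 values. With the same scaling, TMM within a tissue, that animal was also the lowest vehicle animal in the cortex (32.5 CPM) and the retina (34.2 CPM), within the criterion there. With library totals it was not the lowest in either, and with all libraries scaled together not in the retina. Chance alone marks about 1 group in 20, and 13 groups were examined. The results without it are given beside the sex difference and the tissue differences. For the difference of treatment effects between the sexes in the hippocampus, the fit without it is among those whose range is given. Animal 963 is 1 of 3 hippocampus vehicle males. The tamoxifen minus vehicle log2 difference of hippocampus males lay between -0.43 and -0.22 over the 19 alternative fits.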

How the results depend on the processing

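The tamoxifen minus vehicle log2 difference of Banp lay between -0.603 and -0.491 in the cortex, -0.62 and -0.513 in the hippocampus and -0.502 and -0.441 in the retina over 20, 19 and 20 alternative fits, and moved by less than 1 SD between replicates in each. The sex difference in the hippocampus was 0.2518 without the libraries rich in choroid plexus transcripts (adjusted p = 0.0384) and ran from 0.1346 to 0.2377 with 1 animal left out. The retina minus hippocampus and hippocampus minus cortex differences passed with DESeq2 (-0.1614 and 0.1726), with no filter on low counts (-0.2031 and 0.2088), with the replicate block (-0.1324 and 0.1448) and without animal 963 or 965; with 1 animal left out they ran from -0.2558 to -0.1325 and from 0.1376 to 0.2586. With library totals they were nearer 0 (-0.04645 and 0.1216, adjusted p = 0.569 and 0.171). Retina minus cortex ran from -0.004292 (without 957, the 1 value below 0) to 0.03646 with 1 animal left out, and to 0.07519 with library totals. The treatment effect in the hippocampus minus that in the cortex, near 0, changed sign with the replicate block (0.01564), without rich libraries (0.04843) and with 1 animal left out (-0.07173 to 0.0345). The block changed no other call.

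Relations between tissues, with alternatives chosen after seeing the data, are given as r for cortex and hippocampus, cortex and retina, and hippocampus and retina in vehicle animals. None of the 3 passed with library totals (0.7767, 0.8032 and 0.7118), with scaling over all tissues (0.7512, 0.7743 and 0.7206) or without rich libraries (0.7829, 0.7365 and 0.7806), where cortex and retina (0.8746) and hippocampus and retina (0.9126) in tamoxifen animals did not pass either, on fewer animals. With 1 animal left out the vehicle values ran from 0.7791 to 0.9262, 0.7366 to 0.9219 and 0.7806 to 0.9773, and cortex and hippocampus in tamoxifen animals from 0.5033 to 0.8401, passing without 951 or 959. For the changes named above the cause was not tested, apart from fits on fewer animals.

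Counts of genes called for tamoxifen moved with the setting, from 31 to 176 around 88 in the cortex, 0 to 63 around 10 in the hippocampus and 4 to 59 around 7 in the retina, in each case highest with DESeq2. For sex they ran from 9 to 33 around 12, from 1477 to 4033 around 2722 and from 11 to 231 around 22. For the difference between the sexes in the cortex, 0 by edgeR, they reached 12 in 1 fit of all tissues, and for the effect in the retina minus that in the cortex or the hippocampus 1 to 31 around 6 and 2 to 15 around 2. The alternative with normalized columns of the authors was not run. Counting error on Banp was least in the hippocampus, whose libraries were the deepest.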
